A study of Homo sapiens with 6 samples.

Results

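Oxidative phosphorylation genes encode the subunits of the respiratory chain (complexes I to IV) and of ATP synthase (complex V). They were picked from the count table by symbol: the NDUFA, NDUFAB, NDUFB, NDUFC, NDUFS and NDUFV genes, SDHA to SDHD, the UQCR genes and CYC1, 10 COX genes, the ATP5 genes, and the mRNA genes of mitochondrial DNA. The rule found 93 genes among the 56303 rows of the table, of which 80 are nuclear and 13 are mitochondrially encoded, and 53 names of pseudogenes were left out. The nuclear genes comprised 38 for complex I, 4 for complex II, 10 for complex III, 10 for complex IV and 18 for complex V, and the mitochondrial genes 7 for complex I, 1 for complex III, 3 for complex IV and 2 for complex V. The table uses older symbols for many ATP synthase genes, so that ATP5A1 is the gene now called ATP5F1A. ATP5S, ATP5SL and ATP5L2 match the rule without being usual structural subunits of ATP synthase, and NDUFA4, counted here with its prefix, is now regarded as a complex IV subunit.

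The data were mRNA sequencing libraries of SW480, a line established from a human colon adenocarcinoma, prepared to learn which transcripts and splicing events depend on the splicing factor RBM39. Cells were infected with lentivirus carrying a non-silencing hairpin (shCtrl) or a hairpin against RBM39 (shRBM39) and selected with puromycin as stable clonal lines, and otherwise shared their culture. There were 3 libraries per group, which the paper describes as independent replicate experiments. The labels name no separate clones, and what the replicates of a group shared is not given. P-values therefore measure the spread between these libraries, part of which may be technical. The labels name 1 hairpin per group.

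Oxidative phosphorylation passes electrons from NADH and succinate along complexes I to IV to oxygen and uses the proton gradient that results to make ATP at complex V. Complexes I, III, IV and V are built from subunits of both genomes, while complex II is wholly nuclear. Mitochondrial DNA is read as long transcripts from both strands that are then cut into mRNAs, rRNAs and tRNAs. Nuclear subunits are made in the cytosol and imported.

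RBM39 itself was read at 441, 448 and 435 CPM (counts scaled to library size, with TMM factors) in the 3 shCtrl libraries and at 266, 276 and 292 CPM in the 3 shRBM39 libraries. Its log2 fold change was -0.67 ± 0.04 (SE; edgeR adjusted p = 1.24e-16), as the labels have it. Libraries held between 18042924 and 20428901 counts. The 7 colon epithelial markers summed to 10899 to 11655 CPM in shCtrl and 13880.4 to 14426 CPM in shRBM39. Of these, KRT8 (log2 fold change 0.43), KRT18 (0.24) and KRT20 (1.82, from 0.310 CPM in shCtrl) were called higher, VIL1 (-0.09), CDH1 (-0.39) and the transcription factor CDX2 (-2.13) lower, and EPCAM (0.02) was not called. The 9 leukocyte, fibroblast and endothelial markers summed to 9.73 to 10.7 CPM in shCtrl and 14.9 to 18.9 CPM in shRBM39, with PTPRC at 0 in all libraries. The part of these marker differences in the results below was not tested.

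Oxidative phosphorylation transcripts were higher as a group after RBM39 knockdown, in both genomes. Of 92 members that passed the filter on low counts, 84 were higher and 3 were lower at an edgeR adjusted p under 0.05, and 5 were not called. Over all 18243 tested genes, 59.1% were called, 29.2% as higher and 29.9% as lower. Nuclear members were higher in 71 of 79 tested genes and lower in 3 (NDUFV3, CYC1 and ATP5S), and all 13 mitochondrial members were higher. Without shCtrl replicate 1, or without shRBM39 replicate 1, only 1 nuclear member was called lower. The groups did not overlap in 87 of the 92 members, against 63.3% of all tested genes. ATP5L2, with 0 to 2 counts per library, was not tested. In bulk RNA, a change in the number of cells of a kind and a change in RNA per cell cannot be told apart.

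The changes were small. The median log2 fold change was 0.42 for nuclear members and 0.44 for mitochondrial members, against -0.01 over all tested genes, and NDUFS5 was the only member to reach a change of 2-fold. Scaling by library totals alone moved the median of all genes to -0.14 and the share of calls that were higher from 49.4% to 33.9%. Under that scaling the medians were 0.29 for nuclear and 0.32 for mitochondrial members. Fold changes were still positive in 71 of 79 nuclear and all 13 mitochondrial members. Among the 33 members chosen for naming, NDUFB11, SDHA, SDHC, UQCRC1, ATP5A1, MT-ND2 and MT-CO1 were no longer called. Calls lost among the other members under that scaling are not listed here. With a correction of each library for gene length and GC content, the medians were 0.39 and 0.38. Exons of 27 members overlapped those of other genes over at least 10% of their length, and the 53 nuclear members with less overlap had a median of 0.42, with 47 higher and 2 lower.

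**Figure D1:**
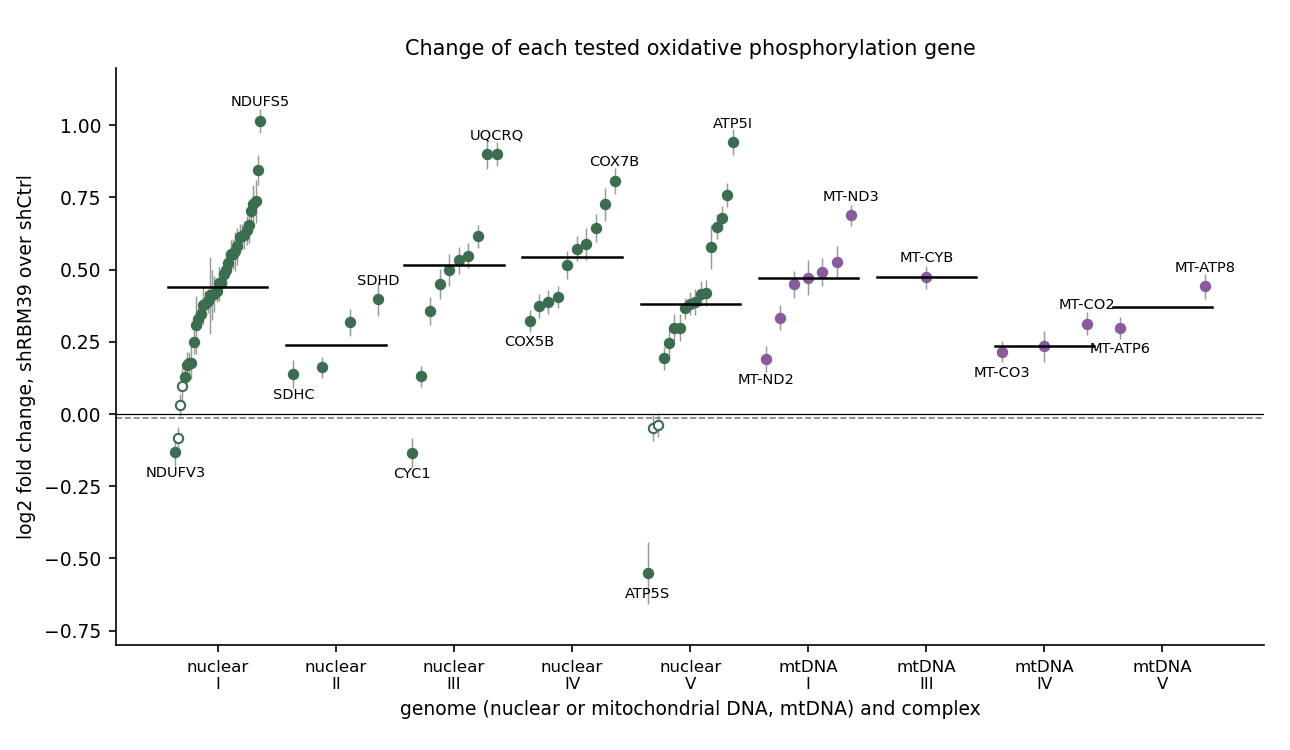
Log2 fold change (shRBM39 over shCtrl, edgeR) of each tested member by genome and complex, ordered within each complex, with standard errors as bars. Filled points passed an adjusted p of 0.05, open points did not, black lines are the medians of the complexes and the dashed line is the median of all tested genes (-0.01). Of the 92 points 6 lie below 0, all of them nuclear, and NDUFS5 is the highest at 1.02.

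Promoters of the nuclear members were examined for short motifs of factors known for respiratory gene control, since the members moved largely together. RefSeq windows (GRCh38) from 250 bases before to 50 bases after the start were listed for 64 of the 80 nuclear members. The windows of 3 members are shown because they hold different pairs or single motifs and belong to genes described below, with every motif match in capitals.
UQCRQ: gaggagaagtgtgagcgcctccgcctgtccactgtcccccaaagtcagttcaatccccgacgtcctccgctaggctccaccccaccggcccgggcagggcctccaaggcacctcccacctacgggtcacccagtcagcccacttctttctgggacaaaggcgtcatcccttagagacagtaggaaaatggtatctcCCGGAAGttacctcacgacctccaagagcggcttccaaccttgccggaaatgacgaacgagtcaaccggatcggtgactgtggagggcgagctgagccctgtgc
SDHB: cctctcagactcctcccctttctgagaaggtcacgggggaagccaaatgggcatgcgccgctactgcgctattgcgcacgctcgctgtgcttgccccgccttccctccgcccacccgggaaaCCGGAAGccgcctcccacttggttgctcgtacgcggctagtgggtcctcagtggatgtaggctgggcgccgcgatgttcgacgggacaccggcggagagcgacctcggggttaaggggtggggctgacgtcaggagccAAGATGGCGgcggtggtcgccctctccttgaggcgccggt
ATP5I: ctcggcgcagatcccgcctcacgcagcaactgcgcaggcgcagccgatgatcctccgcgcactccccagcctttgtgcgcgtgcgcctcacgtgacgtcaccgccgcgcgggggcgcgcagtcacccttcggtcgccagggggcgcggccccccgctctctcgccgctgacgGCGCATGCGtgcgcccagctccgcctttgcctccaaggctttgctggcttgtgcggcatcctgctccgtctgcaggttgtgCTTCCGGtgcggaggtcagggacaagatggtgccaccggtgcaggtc
The UQCRQ window is chr5:132866392-132866691 on the plus strand, the SDHB window chr1:17053983-17054282 on the minus strand, and the ATP5I window (listed as ATP5ME) chr4:674227-674526 on the minus strand. UQCRQ held the ETS motif, SDHB the ETS and YY1 motifs, and ATP5I the NRF1 motif and the ETS motif on its other strand.

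The NRF1 motif (GCGCATGCG, either strand, whose strands can overlap each other) was in the windows of 11 of the 64 members (17.2%), against 2.34% of the 27305 genes in the promoter table. The motif of GABPA and other ETS factors (CCGGAAG, either strand) was in 20 members (31.2%) against 12.2% of all genes. The YY1 motif (AAGATGGCG, either strand) was in 9 members (14.1%) against 2.14%. At least 1 of them was in 33 of 64 member windows (51.6%) and in 15.4% of all genes. The comparison genes were not limited to genes tested here or matched to the members in base content. Whether the motifs are commoner than in other expressed genes was not tested. Members with and without a motif had close medians. Of the 33 members with a motif, 30 were higher, with a median log2 fold change of 0.41, and of the 31 without one, 29 were higher and 1 was lower, with a median of 0.45.

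Complex I, which takes electrons from NADH, had 38 nuclear members, of which 34 were higher, 1 was lower and 3 were not called, with a median log2 fold change of 0.44. The 7 nuclear core subunits, which hold the flavin and the iron-sulfur clusters or the quinone site, had a lower median than the rest. It was 0.18, and 5 of them were higher, whereas the 31 accessory subunits had a median of 0.48, with 29 higher and 1 lower.

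NDUFS5, an accessory subunit on the intermembrane space side, was read at 333, 304 and 324 CPM in shCtrl and at 609.9, 659 and 675 CPM in shRBM39. The lowest shRBM39 library was well above the highest shCtrl library. Per length of merged exons, NDUFS5 had the highest level of the nuclear members in shCtrl, at 609.6 ± 23.4 RPKM (SD, n = 3). By mean CPM in shCtrl, ATP5B (469) and COX4I1 (388) were above NDUFS5 (321). The log2 fold change of NDUFS5, 1.02 ± 0.04 (SE; edgeR adjusted p = 9.49e-21), was the largest among the members. NDUFB3, an accessory subunit of the membrane arm, followed at 34.1, 33.4 and 34.1 CPM in shCtrl and 57.0, 59.5 and 65.9 CPM in shRBM39. All 3 shRBM39 libraries lay above the control libraries (log2 fold change 0.84 ± 0.05 SE, edgeR adjusted p = 8.17e-16).

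At the other end of the complex I genes called higher, NDUFB11, another membrane arm subunit, was at 129.6, 134 and 138 CPM in shCtrl and at 145, 148 and 147 CPM in shRBM39. The groups were narrowly apart, with a log2 fold change of 0.13 ± 0.04 (SE; edgeR adjusted p = 0.00406). Its exons overlap those of RBM10 on the other strand over 44.9% of their length, and RBM10 was at 217 CPM in both groups.

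NDUFV3, an accessory subunit of the NADH-binding module, was the only complex I gene called lower. It was read at 51.0, 48.6 and 52.5 CPM in shCtrl and at 44.9, 47.4 and 46.5 CPM in shRBM39. The groups were apart but close, with a log2 fold change of -0.13 ± 0.05 (SE; edgeR adjusted p = 0.0173). The call was lost without shCtrl replicate 1 or 3 or shRBM39 replicate 1 (adjusted p = 0.0539, 0.101 and 0.0913) and with DESeq2 (0.0910). The core subunits NDUFS1 (log2 fold change 0.03, adjusted p = 0.517) and NDUFV1 (-0.08, adjusted p = 0.0602) and the accessory subunit NDUFA5 (0.10, adjusted p = 0.163) were not called by edgeR.

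Complex II, succinate dehydrogenase, links the citric acid cycle to the chain, and its 4 genes were all higher, by the smallest median of nuclear members among the 5 complexes (0.24). SDHA, the flavoprotein, was at 219, 214 and 217 CPM in shCtrl and 242, 246 and 240.0 CPM in shRBM39, so that each shRBM39 library exceeded each control (log2 fold change 0.16 ± 0.04 SE, edgeR adjusted p = 0.000257). Reads of SDHA can be shared with its pseudogenes, of which SDHAP1 had a log2 fold change of 0.15 and SDHAP2 of -0.15, the second not called. SDHB, the iron-sulfur subunit, was at 58.4, 55.8 and 55.5 CPM and at 67.4, 71.6 and 72.4 CPM. The groups again did not overlap (log2 fold change 0.32 ± 0.04 SE, edgeR adjusted p = 2.39e-07).

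The membrane anchors of complex II differed in size of change. SDHD was at 24.8, 23.7 and 26.5 CPM in shCtrl and 32.5, 32.3 and 33.9 CPM in shRBM39 (log2 fold change 0.40 ± 0.06 SE, edgeR adjusted p = 3.97e-07). SDHC was at 38.5, 37.8 and 37.4 CPM and at 41.0, 43.5 and 40.7 CPM (log2 fold change 0.14 ± 0.05 SE, edgeR adjusted p = 0.0172). Both were higher in 3 of 3 shRBM39 libraries. SDHC lost its call without shRBM39 replicate 2 (adjusted p = 0.0846), with DESeq2 (0.0539) and with upper-quartile scaling (0.0671).

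**Figure D2:**
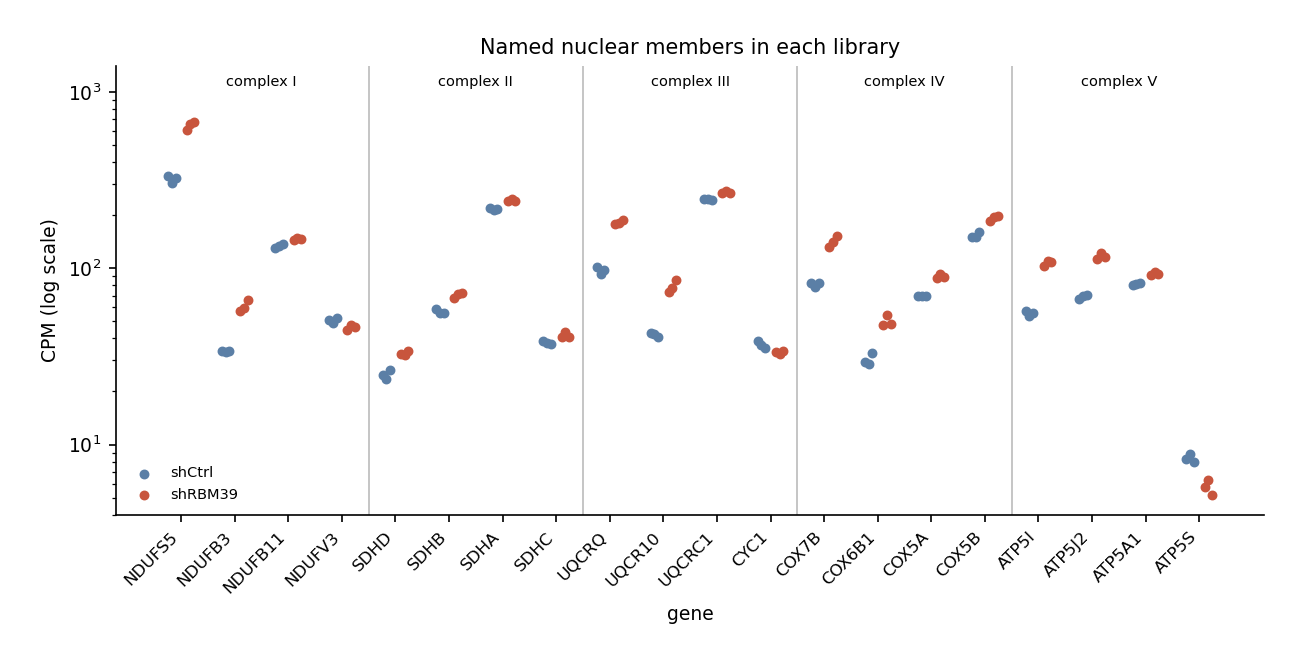
CPM (log scale) of the nuclear members chosen for naming in each of the 6 libraries, grouped by complex, with 1 point per library. The 2 groups do not overlap for any of these genes, and in NDUFV3, CYC1 and ATP5S the shRBM39 libraries are the lower ones.

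Complex III, which carries electrons from ubiquinol to cytochrome c, had 9 of 10 nuclear members higher and 1 lower, with a median log2 fold change of 0.52. UQCRQ, a small accessory subunit, was at 102, 92.9 and 97.1 CPM in shCtrl and 177, 180.1 and 188 CPM in shRBM39. This was the largest change in the complex, at 0.90 ± 0.04 on the log2 scale (SE; edgeR adjusted p = 1.83e-19). UQCR10, another small subunit, was at 42.7, 42.5 and 40.9 CPM and at 73.0, 76.8 and 85.2 CPM. Its log2 fold change was also 0.90 ± 0.05 (SE; edgeR adjusted p = 7.07e-17), and the groups were well apart.

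UQCRC1 and UQCRC2, the large subunits of the matrix side, had log2 fold changes of 0.13 and 0.53. UQCRC1 was at 246, 248 and 245 CPM in shCtrl and 266, 275 and 268 CPM in shRBM39, which did not overlap (log2 fold change 0.13 ± 0.04 SE, edgeR adjusted p = 0.00223). CYC1, cytochrome c1, was at 38.5, 36.7 and 35.2 CPM and at 33.5, 32.8 and 34.1 CPM. It was the only complex III gene called lower, with a log2 fold change of -0.14 ± 0.05 (SE; edgeR adjusted p = 0.0275). That call was lost without shCtrl replicate 1 or 2 or shRBM39 replicate 1 or 2 (adjusted p = 0.154, 0.0583, 0.0677 and 0.0993) and with DESeq2 (0.129). UQCRFS1, the Rieske iron-sulfur protein, had a log2 fold change of 0.45. UQCRH (0.61) and UQCRHL (0.50) are near-identical copies, and the split of reads between them is uncertain.

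Complex IV, cytochrome c oxidase, had all 10 nuclear members higher, with a median log2 fold change of 0.54. This was the highest median of nuclear members among the 5 complexes, whereas the 3 mitochondrial members of complex IV had the lowest median among the mitochondrial ones (0.23). COX7B was at 82.2, 78.7 and 81.9 CPM in shCtrl and 133, 140.4 and 152 CPM in shRBM39, without overlap (log2 fold change 0.81 ± 0.04 SE, edgeR adjusted p = 3.77e-17). COX6B1, a subunit facing the intermembrane space, was at 29.3, 28.5 and 33.1 CPM and at 47.7, 54.6 and 48.1 CPM (log2 fold change 0.73 ± 0.06 SE, edgeR adjusted p = 6.58e-13). The smallest changes in the complex were still clear of the control spread. COX5A, at 69.4, 69.4 and 69.3 CPM in shCtrl, reached 87.8, 92.8 and 89.1 CPM in shRBM39 (log2 fold change 0.37 ± 0.04 SE, edgeR adjusted p = 2.04e-09). COX5B rose from 149.7, 151 and 161 CPM to 185, 195 and 198 CPM (log2 fold change 0.32 ± 0.04 SE, edgeR adjusted p = 1.2e-08). NDUFA4, the complex IV subunit with a complex I name, was called higher too, with a log2 fold change of 0.74.

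Complex V, ATP synthase, had 17 tested nuclear members, of which 14 were higher, 1 was lower and 2 were not called, with a median log2 fold change of 0.38. By part of the enzyme, 4 of 5 genes of F1 (catalytic head and central stalk) were higher (median 0.30). So were 2 of 3 genes of the proton-carrying c ring (median 0.58) and 7 of 7 of the peripheral stalk and membrane part (median 0.42). Not called by edgeR were ATP5D, of F1 (-0.05, adjusted p = 0.366), and ATP5G2, of the c ring (-0.04, adjusted p = 0.455). The other c ring genes, ATP5G1 and ATP5G3, had log2 fold changes of 0.58 and 0.65.

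ATP5I, the e subunit of the membrane part, was at 57.4, 53.8 and 55.6 CPM in shCtrl and 102, 110.0 and 108 CPM in shRBM39. The shRBM39 libraries were close to 2-fold above the controls, with a log2 fold change of 0.94 ± 0.04 (SE; edgeR adjusted p = 4.43e-19). Exons of MYL5 on the other strand overlap ATP5I over 61.6% of its length, and MYL5 had a log2 fold change of 0.95. Since the strand setting of the count is not given in the sources used here, reads of ATP5I and MYL5 could not be told apart with certainty. ATP5J2, the f subunit, was at 67.1, 69.2 and 70.8 CPM and at 113, 121 and 116 CPM, without overlap (log2 fold change 0.76 ± 0.04 SE, edgeR adjusted p = 5.13e-17). It shares exons with the readthrough gene ATP5J2-PTCD1, which had a log2 fold change of 0.67.

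ATP5A1, the catalytic-head alpha subunit, was at 80.3, 81.3 and 82.7 CPM in shCtrl and 91.8, 95.0 and 92.4 CPM in shRBM39 (log2 fold change 0.19 ± 0.04 SE, edgeR adjusted p = 0.000134). ATP5B, the beta subunit, had the second highest level per length of the nuclear members in shCtrl, at 210.5 RPKM, and a log2 fold change of 0.37. ATP5S, also known as DMAC2L and outside the structural subunits, was the member that fell most. It was at 8.24, 8.90 and 7.97 CPM in shCtrl and 5.72, 6.33 and 5.16 CPM in shRBM39, with no overlap (log2 fold change -0.55 ± 0.11 SE, edgeR adjusted p = 4.92e-05).

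Size of change went with exon length among the nuclear members. All 22 members with merged exons under 1500 bases were higher, with a median log2 fold change of 0.60. From 1500 to under 3000 bases 22 of 24 were higher (median 0.42), and from 3000 bases 27 of 33 (median 0.36). Over all tested genes 23.6%, 32.7% and 29.8% were higher in these length classes, with medians of 0.00, 0.03 and -0.03. Merged exons join all exons annotated for a symbol, so this length is not that of a single mRNA. Spearman's rho between log2 fold change and merged exon length was -0.47 over 79 nuclear members and -0.42 after the correction for length and GC content, against -0.08 over 18243 tested genes. These points are genes that share the same 6 libraries. Without the 7 nuclear core subunits of complex I and without CYC1 and UQCRFS1, the medians in the 3 length classes were 0.60, 0.42 and 0.38.

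**Figure D3:**
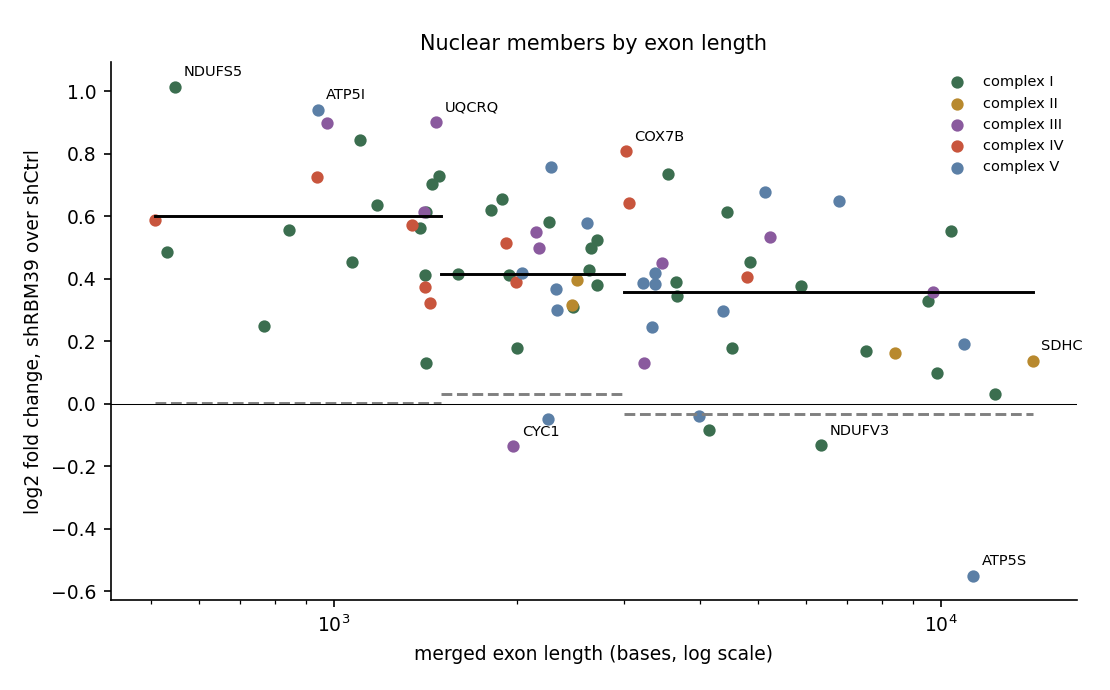
Log2 fold change of the 79 tested nuclear members against merged exon length (log scale), coloured by complex. Solid lines are medians of members in 3 length classes (0.60, 0.42 and 0.36) and dashed lines the medians of all tested genes in those classes (0.00, 0.03 and -0.03).

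Transcripts of the 13 mitochondrially encoded members were far more abundant than the nuclear ones. Their level per length in shCtrl ran from 1739 ± 66.0 RPKM (MT-ND3) to 18637 ± 524 RPKM (MT-ATP6; SD, n = 3), with a median of 3520 RPKM, whereas the median of the tested nuclear members was 27.0 RPKM. They held 5.88%, 5.82% and 5.48% of all counts in the shCtrl libraries and 7.16%, 6.48% and 6.28% in the shRBM39 libraries. The groups did not overlap, and the mean share was 16.0% higher in shRBM39. The 80 nuclear members together held 0.694%, 0.684% and 0.702% of counts in shCtrl and 0.844%, 0.874% and 0.890% in shRBM39, which was 25.4% higher.

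The summed levels of both genomes were higher, and the balance between them overlapped between the groups. Counts of mitochondrial members per count of nuclear members were 8.47, 8.50 and 7.80 in shCtrl and 8.49, 7.41 and 7.05 in shRBM39. These ranges overlapped, with a mean 7.33% lower in shRBM39. On the TMM scale the summed level of nuclear members rose from 6654 ± 116 to 9087 ± 260 CPM and that of mitochondrial members from 54932 ± 2335 to 69405 ± 4741 CPM (SD, n = 3). shRBM39 replicate 1 had the highest mitochondrial and the lowest nuclear share of its group, and without it the mean mitochondrial share was 11.4% above shCtrl.

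**Figure D4:**
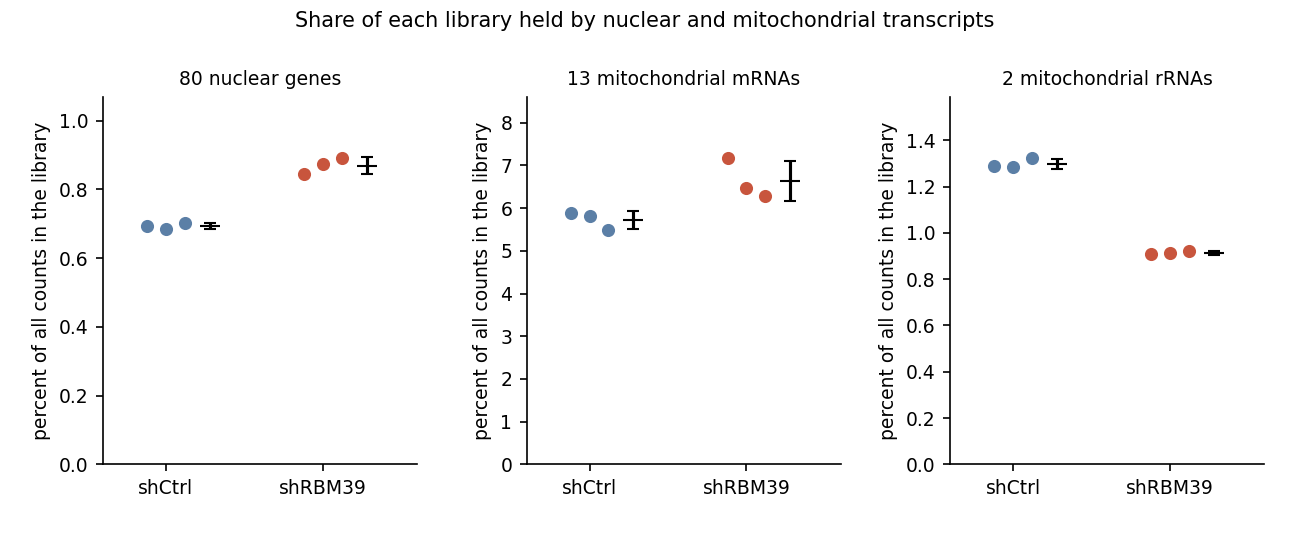
Percent of all counts per library held by the 80 nuclear members, the 13 mitochondrial members and the 2 mitochondrial rRNAs. Each library is 1 point, with the mean ± SD (n = 3) beside each group. In shRBM39 the first 2 shares lie above every shCtrl library and the rRNA share lies below.

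Summed, the 2 mitochondrial rRNAs went the other way, though only MT-RNR2 was called lower. They held 1.29%, 1.28% and 1.32% of counts in shCtrl and 0.908%, 0.912% and 0.923% in shRBM39, with no overlap. MT-RNR2, the large rRNA, had a log2 fold change of -0.39 (edgeR adjusted p = 9.64e-12), and MT-RNR1, the small one, of -0.01 (adjusted p = 0.858, not called). The ratio of mitochondrial mRNA to rRNA counts rose from 4.41 ± 0.23 to 7.27 ± 0.56 (SD, n = 3). The libraries were made for mRNA, and how much rRNA each of them captured was not tested.

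Along the mitochondrial genome, the genes from MT-ND1 to MT-CO3 had lower fold changes than those from MT-ND3 to MT-CYB, a division chosen after the values were seen. MT-ND1 (complex I) was at 5742, 5677 and 5223 CPM in shCtrl and 7586, 6868 and 6511 CPM in shRBM39 (log2 fold change 0.33 ± 0.04 SE, edgeR adjusted p = 5.22e-08). MT-ND2 was at 2828, 2840.4 and 2610.0 CPM and at 3449, 3091 and 2913 CPM (0.19 ± 0.04 SE on the log2 scale, edgeR adjusted p = 0.000428), the smallest change of the 13. All 3 shRBM39 libraries were above the controls for both genes. MT-CO1, the catalytic subunit of complex IV, was at 5167, 4872 and 4463 CPM and at 6444, 5578 and 5035 CPM. It was the only mitochondrial member whose groups overlapped (log2 fold change 0.23 ± 0.05 SE, edgeR adjusted p = 0.000364), and DESeq2 did not call it (adjusted p = 0.0848).

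The other complex IV mRNAs were both higher without overlap. MT-CO2 was at 2418, 2334 and 2179 CPM in shCtrl and 3013, 2826 and 2773 CPM in shRBM39 (log2 fold change 0.31 ± 0.04 SE, edgeR adjusted p = 3.07e-08). MT-CO3 was at 9644, 9612 and 9465 CPM and at 11475, 11062 and 10831 CPM (0.22 ± 0.04 SE on the log2 scale, edgeR adjusted p = 3.09e-06).

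MT-ATP8 and MT-ATP6, the complex V subunits of the mitochondrial genome, share an mRNA and 46 bases of coding sequence at chrM:8527-8572 (GRCh38, plus strand), which is 22.2% of MT-ATP8. The shared stretch is shown because reads that fall in it cannot be given to 1 gene, with the start codon of MT-ATP6 and the stop codon of MT-ATP8 in capitals.
MT-ATP8/MT-ATP6: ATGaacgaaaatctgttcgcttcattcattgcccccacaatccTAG
MT-ATP8 was at 3112, 2911 and 2739.6 CPM in shCtrl and 4249, 3785 and 3872 CPM in shRBM39 (log2 fold change 0.44 ± 0.04 SE, edgeR adjusted p = 7.93e-11). MT-ATP6 was at 12620.2, 12145 and 11773 CPM and at 15584, 14716 and 14615 CPM (0.30 ± 0.04 SE on the log2 scale, edgeR adjusted p = 1.80e-08). Neither gene had overlapping groups.

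MT-ND3, a short complex I mRNA, changed most among the 13. It was at 558, 586 and 588 CPM in shCtrl and 959.8, 928 and 901 CPM in shRBM39 (log2 fold change 0.69 ± 0.04 SE, edgeR adjusted p = 3.26e-17). Its shRBM39 libraries were all far above the controls. MT-ND4L was at 1611, 1531 and 1398 CPM and at 2337, 2033 and 2016 CPM (log2 fold change 0.49 ± 0.05 SE, edgeR adjusted p = 5.49e-11). MT-ND4, which shares 7 bases and an mRNA with it, was at 5927, 5596 and 5276 CPM and at 8439, 7342 and 7149 CPM (0.45 ± 0.05 SE on the log2 scale, edgeR adjusted p = 2.84e-10).

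The last 3 genes in the order included the only member read from the other strand. MT-ND5 was at 3261, 3259 and 2926 CPM in shCtrl and 5089.5, 4285 and 3732 CPM in shRBM39 (log2 fold change 0.47 ± 0.06 SE, edgeR adjusted p = 2.16e-08). MT-ND6, from the opposite strand, was at 1358, 1305 and 1195 CPM and at 2132, 1785 and 1635 CPM (0.53 ± 0.06 SE on the log2 scale, edgeR adjusted p = 5.82e-10). As the strand setting of the count is not given, reads of MT-ND6 could not be told apart with certainty from reads of the other strand. MT-CYB, cytochrome b of complex III, was at 2739, 2751 and 2554 CPM and at 3950.2, 3632 and 3593 CPM (0.47 ± 0.04 SE on the log2 scale, edgeR adjusted p = 2.11e-12). In all 3 the shRBM39 libraries were above the controls, with replicate 1 the highest.

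The log2 fold changes ran from 0.19 to 0.44 over the 7 genes from MT-ND1 to MT-CO3 and from 0.45 to 0.69 over the 6 genes from MT-ND3 to MT-CYB. Second stretch minus first, the mean log2 deviation from the shCtrl mean was 0.27, 0.22 and 0.19 in the shRBM39 libraries. In the shCtrl libraries it was -0.01, 0.01 and -0.00, values that centre on the shCtrl mean by construction. As the division was chosen after the values were seen, these ranges and differences restate those values and do not test it. With the correction for length and GC content the ranges were 0.17 to 0.38 and 0.42 to 0.65.

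**Figure D5:**
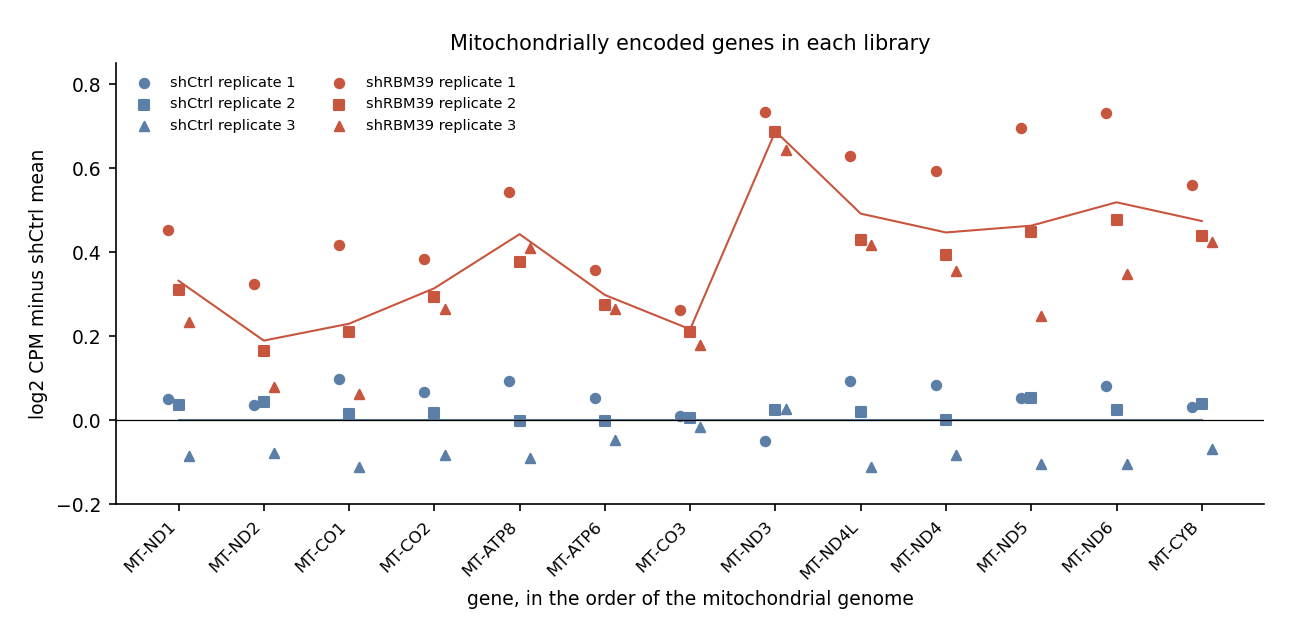
Log2 CPM of each mitochondrial member minus its shCtrl mean in the 6 libraries (1 symbol per replicate). Genes are in the order of the mitochondrial genome, with lines through the group means. The shRBM39 line lies between 0.19 and 0.44 up to MT-CO3 and between 0.45 and 0.69 from MT-ND3 on. This division was chosen after the values were seen. At every gene shRBM39 replicate 1 is the highest library.

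Genes that serve the respiratory complexes without being subunits were read from lists of the pathway. Among assembly factors of complex I, 8 of 16 were higher and 1 was lower, with a median log2 fold change of 0.21, where 29.2% of all tested genes were called higher and 29.9% lower. The 9 called of 16 are close to the 59.1% called over all tested genes. NUBPL, which delivers iron-sulfur clusters, rose from 4.84 to 9.13 CPM (log2 fold change 0.92), and ECSIT fell from 27.0 to 20.9 CPM (-0.37). Factors of complexes II and III were higher in 6 of 10 and lower in 1, led by UQCC2 at 0.63 and with LYRM7 at -0.37. Factors of complexes IV and V were higher in 19 of 25 and lower in 1. PET100, a small complex IV factor, rose from 40.1 to 88.8 CPM (1.15 on the log2 scale, edgeR adjusted p = 1.60e-19), and SURF1, which acts early in complex IV assembly, fell from 11.7 to 8.37 CPM (-0.49).

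The machinery that copies and reads mitochondrial DNA was higher in 10 of 15 genes and lower in 1. Over all tested genes 29.2% were called higher and 29.9% lower. TEFM, an elongation factor of mitochondrial transcription, had the highest log2 fold change of the called genes (0.47), and POLG2, the accessory subunit of the mitochondrial DNA polymerase, the lowest (-0.28). TFAM, which packages mitochondrial DNA, went from 76.5 to 96.5 CPM (0.34). Of 19 genes for processing and stability of mitochondrial RNA, 14 were higher and 2 were lower, against the same 29.2% and 29.9%. SLIRP went from 104 to 175 CPM (0.75), while its partner LRPPRC was at 193 and 194 CPM (0.01, not called), and PTCD2 was at the low end with -0.64.

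In a list read for nuclear regulators of these genes, 1 of 9 was called higher and 3 of 9 lower, against 29.2% and 29.9% of all tested genes. The list includes TFB1M, which is a mitochondrial rRNA methyltransferase and not a regulator of the nuclear members. GABPA was higher (log2 fold change 0.29), TFB1M (-0.20), ESRRA (-0.66) and PPARGC1A (-1.37) were lower, and 5 were not called, NRF1 (0.11) and YY1 (-0.02) among them. PPARGC1A, a coactivator of mitochondrial biogenesis, fell from 6.01 to 2.32 CPM (edgeR adjusted p = 9.27e-10). ATP5J overlaps GABPA on the other strand over 20.2% of its length. Subunit paralogs outside the rule also went down where they could be tested, in 2 of 8 genes. NDUFA4L2 fell from 11.2 to 2.17 CPM (log2 fold change -2.37, edgeR adjusted p = 6.72e-17) and COX7A2L, a supercomplex factor also called SCAF1, from 52.2 to 38.5 CPM (-0.44).

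Splicing records were listed for 2 members, both skipped exons, in a table that held only events past a threshold and that names its groups 1 and 2 without tying them to the knockdown. The NDUFB6 exon, chr9:32570960-32571052 on the minus strand (GRCh38), is coding exon 2 of 4 of the canonical transcript. It is shown as the only structural subunit with a record, with the exon in lower case and the intron bases next to it in capitals.
NDUFB6 exon: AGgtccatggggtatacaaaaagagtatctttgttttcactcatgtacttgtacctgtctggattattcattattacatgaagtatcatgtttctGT
Its 93 bases keep the reading frame when skipped. Group 1 had inclusion levels of 0.854, 0.636 and 0.737 and group 2 of 0.883, 0.942 and 0.928, without overlap. The skipping reads behind them were 4, 6 and 5 in group 1 and 1 per library in group 2, so the depth was low. At the gene level NDUFB6 was higher in shRBM39 (log2 fold change 0.56, edgeR adjusted p = 1.18e-08). The ATP5SL exon, chr19:41433272-41433434 on the minus strand, has 163 bases, which is not a multiple of 3. Here group 1 had levels of 0.218, 0.077 and 0.199 and group 2 of 0.362, 0.264 and 0.196, which overlapped.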

How the data were processed

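RNA of SW480 cells was sequenced from stranded mRNA libraries with unique identifiers, 3 with shCtrl and 3 with shRBM39, and groups came from the sample titles. Count columns labelled NC were taken to be shCtrl because the series has no other control. Read counts over the merged exons of every symbol were deposited unnormalized, and per the labels the authors used Trimmomatic 0.36, STAR 2.5.3a, featureCounts of Subread 1.5.1, edgeR 3.12.1 and GRCh38. Strand and multi-mapping options and the annotation release are not given in the sources used here. Deposited RPKM values equalled those recomputed from the counts and added no measurement. The authors also deposited rMATS splicing records, from which inclusion levels and reads were used and the p-values were not.

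Counts were tested in edgeR 4.0.16 (R 4.3.3). Genes were filtered by filterByExpr, libraries were scaled by TMM, and shRBM39 was compared with shCtrl by the quasi-likelihood F test without covariates. P-values were adjusted by Benjamini-Hochberg across the 18243 genes tested, and calls used 0.05. Standard errors came from the fold change and its F statistic. Named were all mitochondrial and complex II genes, and the 2 highest and 2 lowest called genes of each other nuclear complex and the extreme called genes of each list, and genes beyond these were chosen after their values were seen. Members and lists were chosen with earlier results of these data known. Alternatives were DESeq2 1.42.0, limma 3.58.1 on log2(RPKM + 1) and log2(RPKM + 0.1), other scalings and filters, a correction for length and GC content, a replicate block, and each library left out. The fits were tested on simulated data. Same-group libraries differed beyond sampling noise (chi-square over its degrees of freedom, 2.11 to 4.21) and were kept as separate samples.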

Additional observations from a re-analysis of the deposited data

How the results depend on the processing

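Over the alternatives run, the fold changes of the 33 named members kept direction and side of the threshold in 527 cases, kept direction but lost the call in 67, and turned direction in 0. All 33 were called in the edgeR fit by the rule that chose them, so these cases do not describe the other members. Testing against a log2 fold change of 0.5 left 20 nuclear members higher, 0 nuclear members lower, 1 mitochondrial member higher and 2232 called genes overall. The number of nuclear members called lower (3) was 1 with DESeq2, 1 with no filter on low counts, 1 at an adjusted p under 0.01, 7 with library totals alone, and 6 with either limma fit on RPKM, which carries library totals too. Leaving out 1 library gave 1 to 4.

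The nuclear median of 0.42 was 0.38 with upper-quartile scaling, 0.29 with library totals alone, 0.28 on log2(RPKM + 1), 0.29 on log2(RPKM + 0.1), 0.39 with the correction for length and GC content, and 0.40 to 0.45 with 1 library left out. The mitochondrial median of 0.44 was 0.32 with library totals alone and 0.32 in both limma fits, where MT-CO3 and MT-ATP6 also lost their calls, and 0.35 (without shRBM39 replicate 1) to 0.50 (without shCtrl replicate 1) with 1 library left out. The share of calls that were higher was 33.6% in these fits. Against the counts of nuclear members, the mitochondrial share turned from 16.0% higher to -7.33%, with overlapping groups. The cause of these shifts was not tested, other than that the denominator differs by construction.

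Replicate numbers did not pair the libraries, since same-numbered libraries correlated in their deviations at 0.01, -0.04 and 0.01. The replicate block gave 10810 called genes against 10790 and changed no call of a named member. Few skipping reads limit the NDUFB6 levels, and ATP5L2 could not be tested.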

Other observations

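Enzymes that feed the respiratory chain were also higher in the knockdown. Of 15 citric acid cycle and pyruvate dehydrogenase genes, 12 were called higher and 3 were not called, with a median log2 fold change of 0.24, against 29.2% of all tested genes called higher. IDH3B, a subunit of the NAD-dependent isocitrate dehydrogenase, rose from 117 to 177 CPM (log2 fold change 0.59, edgeR adjusted p = 2.35e-15), and SUCLG1, of succinyl-CoA ligase, had the smallest called change (0.11, edgeR adjusted p = 0.0388).

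Carriers of electrons and nucleotides were called higher in 8 of 20, lower in 4 and not called in 8, close to the 59.1% called over all tested genes (29.2% higher and 29.9% lower). CYCS, cytochrome c, rose from 160.3 to 269.5 CPM (log2 fold change 0.75, edgeR adjusted p = 2.31e-16). Among the ADP/ATP carriers, SLC25A4 rose from 31.2 to 46.3 CPM (0.57) and SLC25A5 from 185 to 207 CPM (0.16), while SLC25A6 fell from 468 to 295 CPM (-0.66, edgeR adjusted p = 1.27e-16).

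Mitochondrial tRNA genes held 0.117%, 0.110% and 0.104% of counts in shCtrl and 0.143%, 0.126% and 0.126% in shRBM39, with no overlap between the groups.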
